A study of Mus musculus with 9 samples.

Results

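SR-B1 KO normal (KO-N) embryos, which lack the lipoprotein receptor SR-B1 but had closed the neural tube, were compared with wild-type (WT) embryos of the same stage. The genes described are all those of the deposited comparison of these groups. That table holds 128 of the 24330 genes measured in the series (0.526%), because it keeps only the genes that the authors marked significant. Of these, 43 (0.177% of all genes) had a higher value and 85 (0.349%) a lower value in KO-N embryos. RNA was sequenced from 9 samples of whole embryos at E9.5, with 3 samples in each of the WT, KO-N and KO-NTD groups. Each sample was a pool of 3 embryos, so that KO-N and WT together make up 6 of the 9 samples. All embryos came from matings of heterozygous animals on a mixed C57Bl/6J x 129S2 background, and both KO groups carried the Scarb1tm1Kri null allele in every cell. KO-NTD embryos had the same genotype as KO-N embryos and an open neural tube. The yolk sacs were dissected away from the embryos, and the visceral yolk sac was used for genotyping.

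SR-B1, encoded by *Scarb1*, is a cell surface receptor that takes up cholesterol and other lipids from high density lipoproteins. In the mouse, maternal lipids reach the early embryo through endoderm-derived epithelia such as the visceral endoderm, which take up nutrients by endocytosis and secrete apolipoproteins and plasma proteins. At the stage studied the embryo also has a beating heart, circulating primitive red cells and a tail bud that still adds to the body axis.

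Expression is given in FPKM, the number of fragments scaled for transcript length and for the mapped fragments of a library, so that levels of different genes can be set side by side. The files give 1 FPKM value per group, combined by the authors from its 3 pools, so the spread between pools cannot be seen and no test was made. The log2 fold change is log2 of (KO-N + 0.1) over (WT + 0.1), and the 0.1 FPKM added to both values understates the fold of genes with low values. For WT and KO-N, the only error in the files is the lower and upper confidence bound of the KO-N value, whose confidence level is stated in none of the sources used here. The median reach of these bounds to either side, as a share of the KO-N value, was 25.3% over 127 of the listed genes, 18.9% for those higher and 31.2% for those lower in KO-N. The WT value lay outside the KO-N bounds in 127 of 127 genes, which the authors' selection largely fixes. The study states the reads per sample, but the processed files hold no read counts per gene, so no counting error of a value is given.

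All pools are labelled female, but 4 of 7 Y-linked genes were expressed in every group, and these 4 were listed lower in KO-N. *Kdm5d*, which encodes a histone demethylase, was at 3.93 FPKM in WT and 1.58 FPKM in KO-N embryos. *Uty*, a related demethylase gene, was at 3.69 and 1.76 FPKM, the translation factor gene *Eif2s3y* at 10.5 and 5.72 FPKM and the RNA helicase gene *Ddx3y* at 5.80 and 3.18 FPKM. The KO-N values were thus between 40.3% and 54.9% of WT, while *Zfy1*, *Zfy2* and *Usp9y* had a value of 0 in KO-N. Y-linked RNA was thus present in every group, at a lower level in KO-N than in WT, and the part of this in the other differences was not tested. Markers of the trophoblast held no listed gene among 8 measured, with *Tpbpa* at 0 FPKM and *Prl3d1* at 1.56 FPKM in KO-N embryos. *Plac1* was the highest of the 8 in KO-N, at 5.07 FPKM. Its WT value, from the separately normalized comparison of KO-NTD with WT, was 5.67 FPKM.

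**Figure D1:**
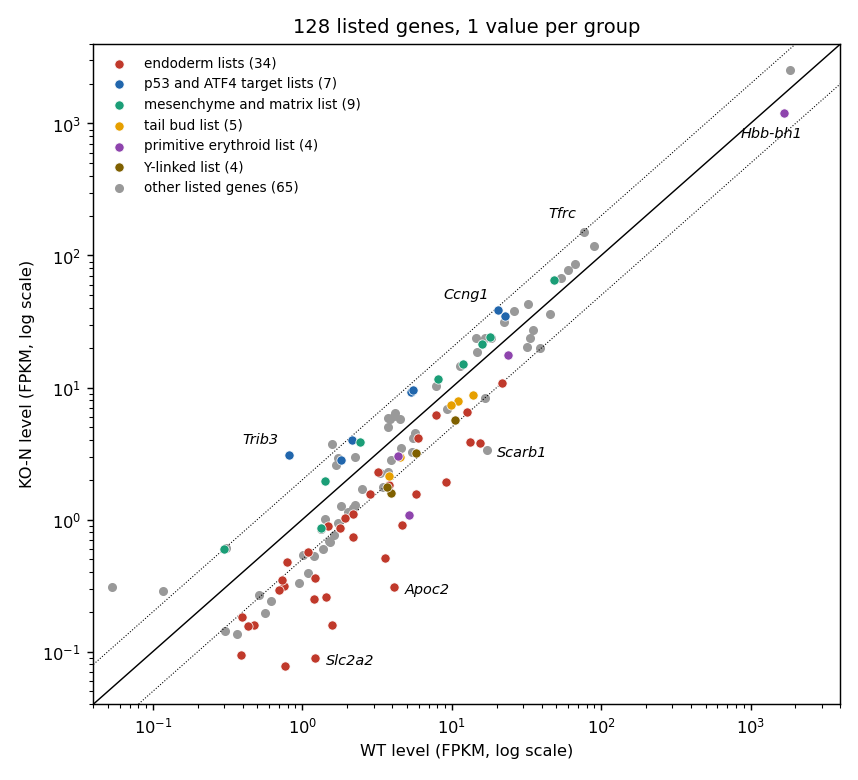
KO-N level against WT level in FPKM, both on log scales, for the 128 listed genes, with 1 authors' value per group and gene. Points below the solid line of equal levels are the 85 genes lower in KO-N; the dotted lines mark 2-fold differences, and genes in more than 1 list are drawn once, in the order of the key.

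The targeted gene had one of the largest differences of the table. *Scarb1* spans bases 125277087 to 125341094 of chromosome 5 in mm10. It was at 17.1 FPKM in WT and 3.35 FPKM in KO-N embryos, with KO-N bounds of 2.52 to 4.16 FPKM. The KO-N level was 19.6% of WT, a log2 fold change of -2.32. *Scarb1* had the largest fold in either direction among the 36 listed genes with at least 10 FPKM in WT. One value for the whole gene does not say which of its exons the remaining reads cover.

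In KO-NTD embryos, which carry the same allele, *Scarb1* was at 3.12 FPKM, close to its KO-N level. The common reference genes *Actb*, *Gapdh*, *Hprt* and *Tbp* were not listed.

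Listed genes of chromosome 5 were counted by their distance from the mutated locus. The window of 10 Mb to each side of *Scarb1* held 243 measured genes, of which 2 were listed, *Scarb1* included (0.823%, against 0.523% elsewhere). Within 20 Mb, 7 of 609 genes were listed (1.15%, against 0.51% elsewhere). The added genes were *Gltp*, *Hspb1*, *Svop* and *Pcolce*, with higher values, and the long non-coding RNA gene *Miat*, with a lower value in KO-N. In all, 12 genes of this chromosome were listed, 8 lower and 4 higher in KO-N. On a mixed background, an effect of the mutation and one of the strain origin of the linked DNA cannot be told apart for these genes.

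Across the table, genes lower in KO-N differed by more than genes higher in KO-N, and were expressed at lower levels. The median absolute log2 fold change was 0.87 for the lower and 0.54 for the higher genes. Among the 12421 genes with at least 1 FPKM in KO-N embryos, 85 were listed (0.684%). By the plain ratio of FPKM values, 44 genes (0.181% of all genes) differed by at least 2-fold, 40 of them lower and 4 higher in KO-N. Of the 14 that differed by at least 4-fold, 13 were lower, and the 1 higher gene, the endogenous retroviral gene *Erv3*, was at 0.0536 FPKM in WT and 0.311 FPKM in KO-N. The median WT level was 2.84 FPKM for the lower and 7.91 FPKM for the higher genes. The smallest listed fold in each direction was that of *Twist1* (0.30) among the higher and of *Miat* (-0.33) among the lower genes. By type, 115 of the genes were protein coding, 5 were long non-coding RNAs, all 5 lower in KO-N, 4 were transcribed pseudogenes and 1 was a small RNA precursor, with 3 not matched in the annotation used.

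The largest group with lower values was that of genes of the endoderm. The 5 lists of genes of visceral endoderm, liver or gut epithelium (apolipoproteins, plasma proteins, endocytic receptors, absorptive epithelium and endoderm transcription factors) have 96 members. Of these, 34 were listed, all 34 lower in KO-N, which is 40% of the lower genes. Their median log2 fold change was -1.06, against -0.75 for the other 51 lower genes. They include 11 of the 13 genes that were at least 4-fold lower. These lists were written with the table known, so the counts describe it and test nothing. The levels were low, with 26 of the 34 genes under 5 FPKM in WT, and the sum over the 34 genes was 137 FPKM in WT and 54.5 FPKM in KO-N embryos. In whole embryos, fewer cells of a type and less RNA per cell cannot be told apart, and how much gut or residual yolk sac endoderm each pool held was not tested. The 8 genes used as markers of visceral endoderm (*Afp*, *Ttr*, *Apoa1*, *Apob*, *Cubn*, *Amn*, *Rbp4* and *Hnf4a*) were all among the lower genes, but they too were chosen with the table known.

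Apolipoproteins, the protein part of lipoprotein particles, had the largest folds. Of 14 measured, 5 were listed, all lower in KO-N, with a median log2 fold change of -2.24. *Apoc2*, whose product activates lipoprotein lipase, was at 4.10 FPKM in WT and 0.310 FPKM in KO-N embryos, with KO-N bounds from 0 to 0.636 FPKM. Its log2 fold change of -3.35 was the largest of the table, and its row also covers the overlapping *Apoc4-Apoc2* readthrough gene. *Apoa4*, a component of intestinal lipoproteins, was at 1.59 and 0.160 FPKM (-2.70). *Apob*, the structural protein of chylomicrons and of low density lipoprotein, was at 4.66 and 0.907 FPKM (-2.24).

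*Apoa1*, the main protein of the high density lipoproteins that SR-B1 binds, was at 9.15 FPKM in WT and 1.91 FPKM in KO-N embryos, with KO-N bounds of 1.25 to 2.56 FPKM (log2 fold change -2.20). *Apoa1* and *Apoa4* are neighbours on chromosome 9, with starts 12.214 kb apart. *Apom*, which carries sphingosine 1-phosphate on high density lipoproteins, was at 5.75 and 1.55 FPKM (-1.82). *Apoe*, the most abundant member in KO-N, was not listed. Its WT value of 34.5 FPKM, taken from the separately normalized comparison of KO-NTD with WT, stood beside 28.1 FPKM in KO-N, with bounds of 23.5 to 32.8 FPKM. Of the other 8 unlisted members, 6 were under 1 FPKM in KO-N.

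Of 29 genes of secreted plasma proteins, 7 were listed, all lower in KO-N, with a median log2 fold change of -1.33. *Spink1*, a trypsin inhibitor gene, was at 15.4 FPKM in WT and 3.79 FPKM in KO-N embryos (-2.0). *Ttr*, which encodes the carrier of thyroxine and of retinol-binding protein, was at 13.2 and 3.86 FPKM (-1.75), and *Rbp4*, the retinol-binding protein gene itself, at 12.7 and 6.50 FPKM (-0.96). *Afp*, which encodes alpha-fetoprotein, the main plasma protein of the embryo, was at 21.7 and 10.8 FPKM, with KO-N bounds of 8.70 to 12.8 FPKM (-1.0). The promoter of *Afp* is shown because it was, with that of *Cdhr2*, one of 2 among 25 listed endoderm genes with a promoter window that held the shorter of the HNF1 motifs searched, GTTAAT, any base and ATT, on either strand. HNF1 is a homeodomain factor of liver and gut. This motif was found in 0.47% of all genes with a promoter window. The window, from RefSeq on GRCm38.p6, is chr5:90490464-90490763 on the plus strand, from 250 bases before to 50 bases after the start of the gene, and the match is in capitals.
Afp: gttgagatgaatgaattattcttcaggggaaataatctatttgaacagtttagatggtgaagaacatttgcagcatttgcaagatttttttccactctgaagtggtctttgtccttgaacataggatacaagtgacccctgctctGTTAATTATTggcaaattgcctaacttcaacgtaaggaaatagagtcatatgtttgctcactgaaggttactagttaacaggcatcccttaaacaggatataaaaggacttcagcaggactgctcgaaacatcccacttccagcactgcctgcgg
The match starts 105 bases before the start site. The longer HNF1 motif (GTTAAT, any base and ATTAAC) and the HNF4 motifs CAAAGTCCA and AGGTCAAAG were in none of the 25 genes. They were in 0.0111%, 0.555% and 0.488% of all genes with a window. The other plasma protein genes listed were *Spp2* (-2.09), the fibrinogen chain gene *Fga* (-1.33) and *Trf*, the gene of transferrin (-1.0). *Alb*, the albumin gene, was at 0.197 FPKM in KO-N and was not listed.

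Of 12 endocytic receptor genes, 4 were listed, all lower in KO-N, with a median log2 fold change of -1.37. Cubilin, encoded by *Cubn*, is a large receptor that binds apolipoprotein A-I and intrinsic factor, and amnionless, encoded by *Amn*, brings it to the cell surface. *Cubn* was at 3.60 FPKM in WT and 0.510 FPKM in KO-N embryos, with KO-N bounds of 0.367 to 0.650 FPKM (-2.60). *Amn* was at 1.20 and 0.249 FPKM (-1.90). *Lrp2*, which encodes megalin, the partner of cubilin, is also expressed in the neural tube, and at 7.90 and 6.14 FPKM it had one of the smallest folds of the table (-0.36). *Folr1*, a folate receptor gene, was at 1.92 and 1.03 FPKM (-0.84). It was the only listed gene among 19 of folate and one-carbon metabolism, in which the reduced folate carrier gene *Slc19a1* was not listed. The lipoprotein receptor genes *Vldlr*, *Lrp1* and *Lrp8* were not listed either.

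Of 30 genes of absorptive epithelium, 17 were listed, all lower in KO-N, with a median log2 fold change of -0.98. This list too was drawn up with the table in view. *Slc2a2*, which encodes the glucose transporter of liver and gut, was at 1.22 FPKM in WT and 0.0890 FPKM in KO-N embryos (-2.81). The tight junction gene *Cldn2* (-1.52), the sulfate transporter gene *Slc13a4* (-1.44), the cystine transporter subunit gene *Slc7a9* (-1.15) and the zinc transporter gene *Slc39a5* (-1.06) were lower too. The other listed members, among them the water channel genes *Aqp8* and *Aqp3*, the microvillar cadherin gene *Cdhr2* and the peptidase gene *Dpp4*, had log2 fold changes between -1.06 and -0.46.

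Among 11 transcription factor genes of endoderm, *Hnf4a*, which encodes the nuclear receptor that many of these genes depend on, was the only one listed. It was at 0.727 FPKM in WT and 0.348 FPKM in KO-N embryos, with KO-N bounds of 0.219 to 0.474 FPKM (-0.89). WT values of some unlisted factors are known from the comparison of KO-NTD with WT, which chose them and shares the WT pools. *Gata6* (14.0 in WT and 17.0 FPKM in KO-N), *Gata4* (11.5 and 13.4 FPKM) and *Sox7* (4.61 and 5.22 FPKM) were not lower in KO-N, although *Gata4* and *Gata6* are also expressed in heart. *Foxa1* (4.86 FPKM), *Foxa2* (5.83 FPKM) and *Sox17* (2.99 FPKM), factors of gut endoderm, had KO-N values and were not listed. The plot of KO-N levels as a percent of WT shows that the group was graded, from 7.27% for *Slc2a2* to 77.7% for *Lrp2*, with a median of 38.6%.

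**Figure D2:**
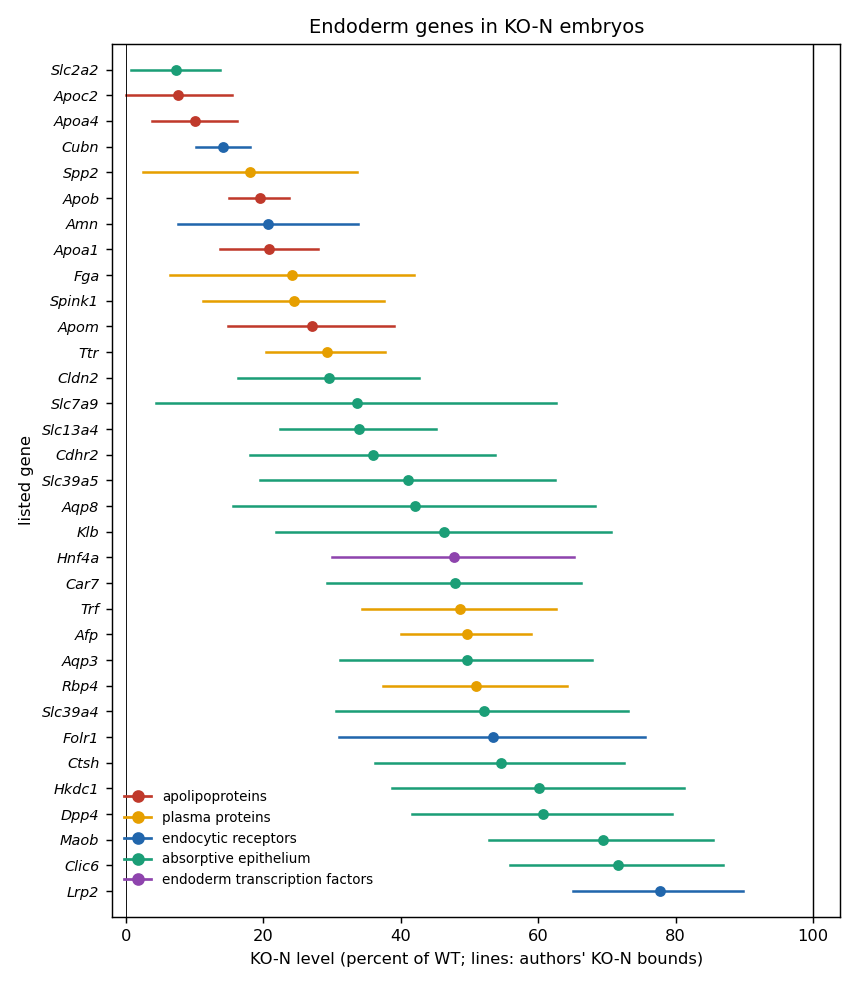
KO-N level as a percent of the WT level for 33 of the 34 listed genes of the 5 endoderm lists, coloured by list. Points are the authors' single value, lines run from the lower to the upper KO-N confidence bound, and the vertical line at 100 is the WT level; the points lie between 7.27% and 77.7%.

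In the other direction, the largest named fold was that of a gene of the ATF4 pathway, in which the transcription factor ATF4 is translated when cells lack amino acids or have unfolded proteins and turns on genes of amino acid supply and stress. *Trib3*, a pseudokinase gene induced by ATF4, was at 0.814 FPKM in WT and 3.10 FPKM in KO-N embryos, with KO-N bounds of 2.32 to 3.86 FPKM. Its log2 fold change was 1.81. *Ddit4*, an inhibitor of mTORC1 signalling, was at 22.7 and 34.8 FPKM (0.61), and *Cebpb*, a basic leucine zipper factor gene, at 1.80 and 2.84 FPKM (0.63). These were 3 of 30 genes of the ATF4 list, and no member was listed lower. The 27 not listed include the amino acid synthesis genes *Asns*, *Psat1* and *Phgdh* and the stress factor genes *Ddit3*, *Atf3* and *Atf5*.

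The ATF4 motif searched, TGATGNAA on either strand, was in 3 of 95 listed genes with a window (*Trib3*, *Rbp4* and *Tnfsf18*). It was in 4.51% of all genes with a window. The *Trib3* promoter is printed because it held this motif. It is chr2:152344011-152344310 on the minus strand of GRCm38.p6, from RefSeq, with the match, on the other strand, in capitals.
Trib3: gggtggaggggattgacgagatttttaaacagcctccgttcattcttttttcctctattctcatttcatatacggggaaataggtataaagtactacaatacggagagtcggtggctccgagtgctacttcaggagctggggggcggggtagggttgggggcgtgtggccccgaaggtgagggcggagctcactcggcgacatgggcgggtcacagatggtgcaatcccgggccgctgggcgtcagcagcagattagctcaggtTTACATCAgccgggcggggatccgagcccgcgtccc

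Targets of p53, the transcription factor that answers DNA damage and other stress by stopping the cell cycle or starting apoptosis, made up a further group with higher values. Of 32 measured, 4 were listed, all higher in KO-N, with a median log2 fold change of 0.82. *Ccng1*, which encodes the regulatory protein cyclin G1, was at 20.4 FPKM in WT and 38.6 FPKM in KO-N embryos, with KO-N bounds of 32.4 to 44.6 FPKM (0.92). *Cdkn1a*, which encodes the cell cycle inhibitor p21, was at 5.52 and 9.54 FPKM, with KO-N bounds of 7.67 to 11.4 FPKM (0.78). *Eda2r*, a receptor gene of the tumour necrosis factor family, was at 2.16 and 4.0 FPKM (0.86), and *Phlda3*, which encodes an inhibitor of AKT, was at 5.36 and 9.24 FPKM (0.78).

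The remaining 28 p53 targets were not listed, among them *Mdm2* at 19.3 FPKM in KO-N. For 8 of them a WT value is known from the comparison of KO-NTD with WT, and their log2 differences of KO-N from WT were 0.38 or less, the highest that of the death receptor gene *Tnfrsf10b*, with a median of 0.28. In 4 of the 8 the WT value was outside the KO-N bounds. The comparison of KO-NTD with WT shares the WT pools and chose these 8, of which all but *Plk3* had a KO-NTD value above WT. That choice favours higher values in KO-N, so these differences test nothing. *Bax*, a gene of apoptosis, was at 54.1 FPKM in WT and 64.0 FPKM in KO-N, with bounds of 53.8 to 74.2 FPKM that include the WT value. Paired p53 half-sites, CATG and again CATG after 6 bases, were in 0.833% of all genes with a window. The promoter of *Cdkn1a* is shown because, among 95 listed genes with a window, only this gene had them. It is chr17:29090729-29091028 on the plus strand of GRCm38.p6, 1 of 2 RefSeq windows of this gene, with the match in capitals, 48 bases before the start site.
Cdkn1a: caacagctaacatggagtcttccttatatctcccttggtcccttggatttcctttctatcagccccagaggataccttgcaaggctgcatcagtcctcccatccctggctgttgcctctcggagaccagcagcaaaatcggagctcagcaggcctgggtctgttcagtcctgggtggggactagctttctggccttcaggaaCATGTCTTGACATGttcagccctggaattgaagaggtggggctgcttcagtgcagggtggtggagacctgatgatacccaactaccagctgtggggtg

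*Tfrc*, the gene of the transferrin receptor that brings iron into cells, had the largest fold among higher genes with at least 10 FPKM in WT. It was at 77.4 FPKM in WT and 151 FPKM in KO-N embryos, with KO-N bounds of 127 to 174 FPKM (0.96). Its ligand gene *Trf* was lower (3.78 and 1.84 FPKM, -1.0). These were the only listed genes among 15 of iron handling. The ferritin genes *Fth1* and *Ftl1* and the iron regulatory protein genes *Aco1* and *Ireb2* were not listed.

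Of 37 genes of hypoxia and glycolysis, 4 were higher and 1 was lower. *Adm*, the gene of the vasodilator peptide adrenomedullin, was at 1.74 FPKM in WT and 2.91 FPKM in KO-N embryos (0.71). The transcription repressor gene *Bhlhe40* was at 1.67 and 2.60 FPKM (0.61), and *Ddit4*, which is in this list too, has been given above. *Eno1b* was at 89.6 and 119 FPKM (0.40), but it shares its sequence with *Eno1*, its symbol stands at another place in the table of all genes and it has no KO-N bounds, so its value is uncertain. *Car12*, a carbonic anhydrase gene, was lower (-0.51). The main glycolytic and hypoxia genes, such as *Vegfa*, *Ldha*, *Pgk1*, *Pdk1* and *Slc2a1*, were not listed.

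Other genes with high places among the higher values were *Ier3*, an early response gene of cell survival, at 1.58 FPKM in WT and 3.71 FPKM in KO-N embryos (1.18), and *Slc19a2*, a thiamine transporter gene, at 3.73 and 5.88 FPKM (0.64). The metallothionein gene *Mt1* was at 22.4 and 31.4 FPKM (0.49) and the small heat shock protein gene *Hspb1* at 16.7 and 23.6 FPKM (0.50). *Mt1* and *Msrb3* (0.37) were the listed genes among 21 of antioxidant and metal defense.

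Genes of the heart showed small differences in the higher direction. Of 33 cardiomyocyte genes, 4 were higher and 1 was lower. *Nppa* and *Nppb*, which encode the atrial and the B-type natriuretic peptide and are neighbours on chromosome 4 with starts 14.958 kb apart, were at 14.7 and 4.15 FPKM in WT. Their KO-N values were 23.7 and 6.43 FPKM (log2 fold changes 0.69 and 0.62). The cardiac transcription factor gene *Hand2* was at 14.7 FPKM in WT and 18.4 FPKM in KO-N (0.33) and *Synpo2l*, a gene of the sarcomere, at 4.49 and 5.77 FPKM (0.36). *Ttn*, which encodes the giant sarcomere protein titin, was the lower gene (1.42 and 1.0 FPKM, -0.47). For 12 unlisted members with a WT value from the other comparison, all 12 KO-N values were higher, by a median of 0.19 on the log2 scale, and 3 WT values were outside the KO-N bounds. The comparison of KO-NTD with the same WT pools chose these 12, and each had a KO-NTD value above WT. A low WT value thus favoured both the choice and a higher value in KO-N, so the count tests nothing.

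The list of mesenchymal genes was written with earlier results of these data known, so its counts describe the data and test nothing. Over all genes, 0.177% were listed higher and 0.349% lower in KO-N. Of 25 genes of mesenchyme and extracellular matrix, 8 were higher and 1 was lower, with a median log2 fold change of 0.44. They include *Mmp28* (0.80), the caveolin gene *Cav1* (0.64), the growth factor gene *Pdgfc* (0.52), the galectin gene *Lgals1* (0.44), the procollagen enhancer gene *Pcolce* (0.43), the protease inhibitor gene *Serpine2* (0.41) and *Cd248* (0.34). *Lgals1* was the most highly expressed of them, at 48.3 FPKM in WT and 65.5 FPKM in KO-N embryos. *Mmp9*, a gelatinase gene, was lower (1.34 and 0.865 FPKM, -0.58). The collagen genes *Col1a1*, *Col1a2* and *Col3a1* and the fibronectin gene *Fn1* were not listed.

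Among 21 neural crest and craniofacial genes, 3 were higher, namely *Barx1* (4.08 and 6.05 FPKM, 0.56), *Hand2* and *Twist1*. *Twist1*, a basic helix-loop-helix factor gene of head mesenchyme, was at 54.3 FPKM in WT and 67.0 FPKM in KO-N embryos, with KO-N bounds of 57.2 to 76.4 FPKM, and at 0.30 had the smallest fold of the table. For 6 unlisted neural crest and craniofacial genes with a WT value from the other comparison, 4 KO-N values were higher and 2 lower. Their median log2 difference was 0.19, and 2 WT values were outside the KO-N bounds. The lowest was *Sox10*, at 8.47 FPKM in WT and 6.71 FPKM in KO-N, with bounds of 5.56 to 7.85 FPKM (-0.33). Among 23 endothelial genes, *Adm*, the Notch ligand gene *Jag2* (0.41) and *Vwf*, the gene of von Willebrand factor (0.39), were higher. *Kdr* and *Tek*, which mark the endothelium as a whole, had log2 differences of at most 0.01. *Etv2*, which encodes an ETS factor of endothelial progenitors and is the other unlisted member with a WT value, was at 3.17 FPKM in WT and 2.34 FPKM in KO-N, with KO-N bounds of 1.59 to 3.08 FPKM that leave out the WT value (-0.42).

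Of the lists for the neural tube and its neurons, 11.8% of the progenitor genes and 12.5% of the neuronal genes were listed. The share was 12.5% for the p53 targets and 0.526% over all genes. These lists too were written with earlier results of these data known, so the shares test nothing. Of 17 genes of neural progenitors, *Fam181b* was higher (0.37) and *Ptprz1* lower (-0.45). For 13 of the 15 others a WT value is known, and the log2 differences lay between -0.21 for *Pax6* and 0.14 for *Sox2*, with a median of 0.02 and no WT value outside the KO-N bounds. Of 24 neuronal genes, *Svop* was higher (0.85, from 0.116 to 0.289 FPKM), and *Sv2b* (-0.75) and *Miat* (-0.33) were lower. For 12 unlisted members with a WT value the median was 0.08, and no WT value was outside the bounds. Of 16 genes of retinoic acid signalling, *Rbp4* and the retinoic acid hydroxylase gene *Cyp26c1* (9.31 and 6.85 FPKM, -0.44) were lower.

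**Figure D3:**
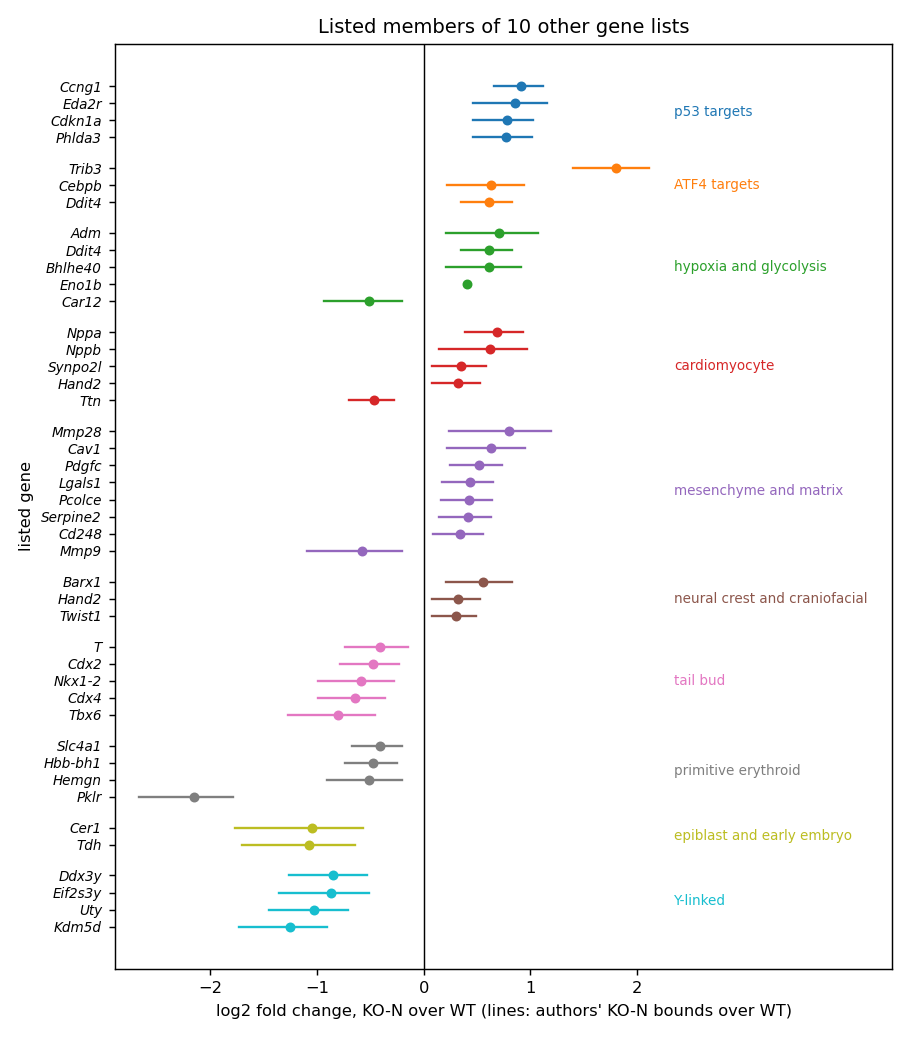
Log2 fold change of KO-N over WT for listed members of 10 gene lists outside the endoderm lists, with *Ddit4* and *Hand2* drawn in both of their lists. Points are 1 value per gene and lines are the same fold at the lower and upper KO-N bounds (none for *Eno1b*). The listed p53, ATF4 and neural crest members lie above 0, and the listed tail bud, erythroid, early embryo and Y-linked members below it.

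The tail bud is where progenitors of spinal cord and somites lie. Of 25 of its genes measured, 5 were listed, all lower in KO-N, and 20 were not listed. The median log2 fold change of the 5 was -0.58. *T*, the gene of brachyury, was at 9.90 FPKM in WT and 7.43 FPKM in KO-N embryos (-0.41). *Tbx6*, a T-box factor gene of presomitic mesoderm, was at 3.78 and 2.12 FPKM (-0.80), and *Nkx1-2*, a homeobox gene of axial progenitors, at 4.49 and 2.96 FPKM (-0.58). The caudal homeobox genes *Cdx4* (13.8 and 8.83 FPKM, -0.64) and *Cdx2* (11.1 and 7.96 FPKM, -0.48) act in posterior patterning. The other 20 members, such as *Wnt3a*, *Fgf8*, *Cyp26a1* and *Msgn1*, were not listed, and of the 4 with a WT value 2 had higher and 2 lower values in KO-N, with a median log2 difference of -0.03. Among genes that mark the epiblast and early embryo, 2 of 14 were lower, the threonine dehydrogenase gene *Tdh* (1.54 and 0.677 FPKM, -1.08) and the Nodal antagonist gene *Cer1* (1.19 and 0.526 FPKM, -1.05).

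Some genes of blood cells were listed as well. Of 23 primitive erythroid genes measured, 4 were listed, all lower in KO-N. *Pklr*, the pyruvate kinase gene of red cells and liver, had by far the largest fold of these, at 5.15 FPKM in WT and 1.08 FPKM in KO-N embryos, with KO-N bounds of 0.728 to 1.42 FPKM (-2.16). The embryonic globin gene *Hbb-bh1* was the most highly expressed lower gene, at 1675 and 1207 FPKM (-0.47). *Hemgn* (4.37 and 3.04 FPKM, -0.51) and *Slc4a1*, the anion exchanger gene (23.7 and 17.8 FPKM, -0.41), were the others. Of 12 unlisted members with a WT value, 11 had a lower value in KO-N, by a median of -0.24, and in 6 the WT value lay outside the KO-N bounds. They include the globin genes *Hba-x* (-0.34) and *Hbb-y* (-0.24), the erythroid factor gene *Klf1* (-0.42) and *Rhag* (-0.56), while *Alas2* had a higher value (0.16). The comparison of KO-NTD with the same WT pools chose these 12 unlisted members, and each had a KO-NTD value below WT. A high WT value thus favoured both the choice and a lower value in KO-N, so the count of 11 tests nothing. The neighbouring cytokine receptor genes *Csf2rb2* (1.09 and 0.392 FPKM, -1.27) and *Csf2rb* (3.49 and 1.77 FPKM, -0.94) of chromosome 15 are closely related copies, so that the split of reads between them is uncertain.

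The sterol synthesis genes *Hmgcs1* and *Sqle*, targets of the sterol-sensing factor SREBP2, were not listed. Neither were 21 of 22 imprinted genes, the exception being the long non-coding RNA gene *Kcnq1ot1* (1.81 and 1.26 FPKM, -0.49).

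*Mir17hg*, the host transcript of the miR-17-92 cluster of proliferation-linked miRNAs, was at 33.6 FPKM in WT and 23.7 FPKM in KO-N embryos, with KO-N bounds of 19.5 to 27.7 FPKM (-0.50). The mature miRNAs were not measured. From RefSeq on GRCm38.p6, 2 of the miRNAs whose 3p arms lie within this locus are shown with the seed, bases 2 to 8, in capitals.
mmu-miR-19b-3p: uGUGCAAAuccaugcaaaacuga
mmu-miR-92a-3p: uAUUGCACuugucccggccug
The seeds differ, so they belong to unlike seed families. *Mir6236*, a small RNA precursor, was the most highly expressed listed gene, at 1842 FPKM in WT and 2544 FPKM in KO-N embryos (0.47). A FPKM value for so short a feature in poly-A RNA does not measure a mature miRNA. The pseudogenes *Gm5779* (38.8 FPKM in WT, 51.6% of that in KO-N, -0.95), *Mrgpra6* (45.5 and 35.8 FPKM, -0.35) and *Gm3002* (34.9 and 27.2 FPKM, -0.36), and *Gm13154* and its neighbour on chromosome 4, the zinc finger gene *Zfp534*, can share reads with near-identical copies, and their values are uncertain.

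The other KO group gives a further value for each gene, taken from the same table as the KO-N bounds. Of the 34 endoderm genes, 32 had a KO-NTD value above that of WT, the exceptions being *Aqp3* and *Maob*. *Afp* was at 40.6 FPKM in KO-NTD against 21.7 FPKM in WT and 10.8 FPKM in KO-N, *Apoa1* at 21.4 against 9.15 and 1.91 FPKM, and *Cubn* at 6.26 against 3.60 and 0.510 FPKM. *Cdx4* was at 17.6 FPKM in KO-NTD, also above WT. For other genes both KO groups lay on the same side of WT. *Pklr* was at 0.650 FPKM and *Hbb-bh1* at 940 FPKM in KO-NTD, below KO-N. *Ccng1* was at 54.3 FPKM, *Cdkn1a* at 13.0 FPKM, *Eda2r* at 6.57 FPKM and *Tfrc* at 172 FPKM, above KO-N. *Trib3* (2.48 FPKM) and *Nppa* (20.2 FPKM) were between WT and KO-N in KO-NTD. The Y-linked genes were at about the KO-N level in KO-NTD, with *Kdm5d* at 1.61 FPKM. The KO-N and WT pools are shared between these comparisons, so the values are set side by side and no overlap was computed.

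**Figure D4:**
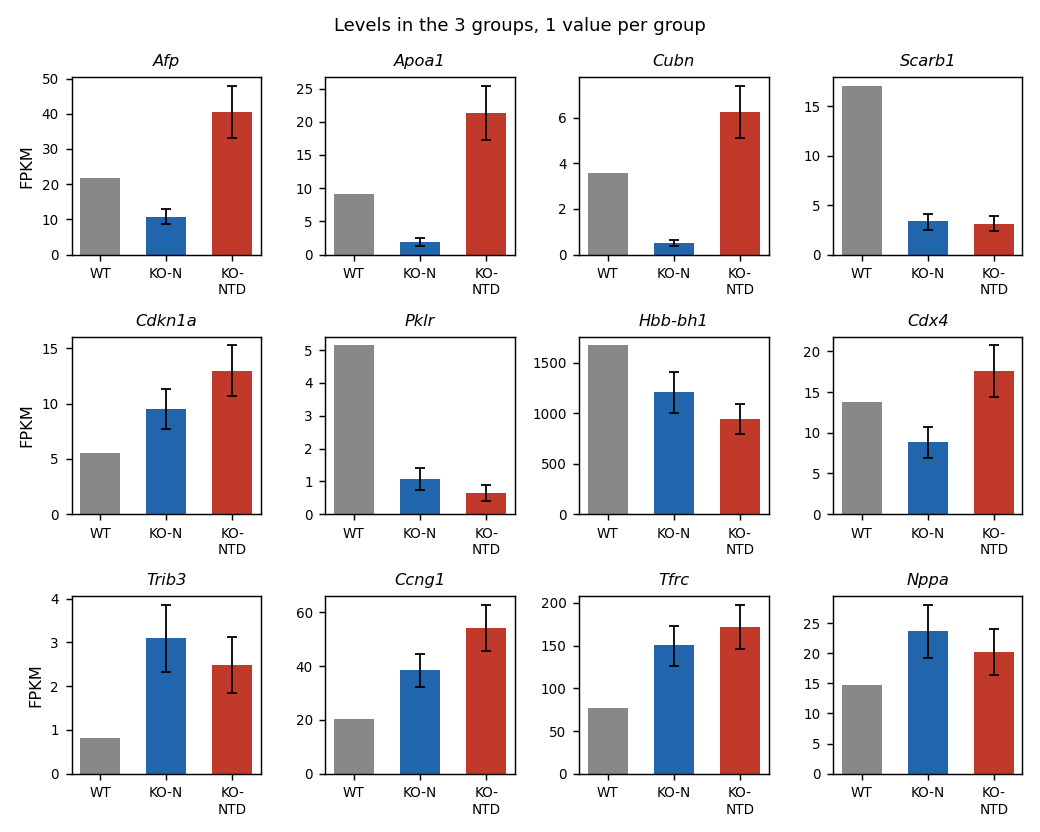
Levels in FPKM of 12 listed genes in the WT group and both KO groups, each axis starting at 0. Bars are 1 authors' value per group, error bars are the authors' confidence bounds (none in the files for WT); *Afp*, *Apoa1*, *Cubn* and *Cdx4* are lowest in KO-N and highest in KO-NTD, and *Scarb1*, *Pklr* and *Hbb-bh1* are below WT in both KO groups.

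A view of genes outside the table comes from those whose WT value is given in the comparison of KO-NTD with WT. There are 707 such genes, chosen by that comparison, which shares the WT pools, and 587 of them had at least 1 FPKM in WT or KO-N. Their median absolute log2 difference between KO-N and WT was 0.14, with 295 higher and 292 lower values, against 0.76 for the listed genes, whose selection by the authors fixes a larger value. The 2 tables were normalized separately, but the WT values of genes in both differed by a factor of 1.00119 to 1.00219. Of the 587 genes, 65 had a larger difference than the smallest listed fold, and in 79 the WT value was outside the KO-N bounds. Only *Mir6382*, a small RNA precursor (33.5 FPKM in WT and 6.20 FPKM in KO-N), and *Trap1a*, an X-linked gene (1.21 and 0.470 FPKM), differed by at least 2-fold.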

How the data were processed

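Poly-A RNA of 9 pools of 3 embryos was sequenced with a strand-specific kit. Following the paper's methods and the submitters' processing notes, the authors aligned the single-end reads with TopHat2 (0.7) against mm10, and Cufflinks (2.2.1) gave the FPKM. For the gene models, the annotation was not given in the sources used here. Each group has 1 deposited FPKM value. The table of KO-N with WT holds genes the authors marked significant, with both FPKM values. The authors' own log2 fold changes, test values, p-values and q-values in it were not used. The KO-N and KO-NTD confidence bounds come from the deposited table of all genes, whose column headed Control is not WT and was not used. Of its 24357 rows, 27 named as dates were left out. KO-N values in the 2 tables differed by a factor of 1.00283 to 1.00499.

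Folds were computed with Python 3.11.15, pandas 2.3.3 and numpy 2.4.6 as log2(FPKM + 0.1), by a function tested on simulated data. The planned limma fit needs a value per library and could not be run. Coordinates are 1-based. Gene types, promoter windows (250 bases before to 50 after the start) and miRNAs came from RefSeq (GRCm38.p6), in which 125 of the 128 genes were matched. Motifs were searched on both strands.

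The members and the 28 gene lists were chosen with earlier results of these data known. The genes named were *Scarb1*, the 15 of each direction that differed most among those reaching 1 FPKM in 1 group (no predicted genes or small RNA precursors), up to 6 listed members of each list with 2 or more, Y-linked genes, listed genes within 10 Mb of *Scarb1*, the 3 of each direction with the highest FPKM, listed neighbours with starts within 200 kb, and the 5 of each direction with the smallest fold. *Hnf4a*, *Folr1* in its folate list, *Kcnq1ot1*, *Mir17hg*, *Erv3*, *Hspb1*, *Gltp*, *Aqp8*, *Aqp3*, *Cdhr2*, *Dpp4*, the last members of the mesenchyme list and all unlisted genes were named after their values were seen. Some listed genes are not reported here.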

Additional observations from a re-analysis of the deposited data

How the results depend on the processing

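Limits are set by the 1 value per group, which leaves the spread between pools unseen, by a table that keeps only genes the authors marked, and by files that hold no read counts per gene. No paired analysis was possible because the columns are group values that carry no replicate numbers. Leaving out single pools was not run for the same reason. No gene changed direction with a pseudocount of 0.01 or 1 FPKM or with a filter of 1 FPKM in 1 group. This was fixed in advance, since neither setting can reverse which group is higher. The KO-N values from the table of all genes, which lacks *Eno1b*, reversed no gene either. They differed by a factor of at most 1.00499, against a smallest listed fold of 1.23, so they could not. Counts of genes past a log2 fold change of 1 in either direction depended on the pseudocount. They were 3 higher and 32 lower with 0.1 FPKM, and 1 higher and 11 lower with 1 FPKM. Of single genes, 27 moved by more than the reach of their KO-N bounds with 1 FPKM and 4 with 0.01 FPKM. Listed genes near *Scarb1* numbered 2 within 5 and 10 Mb and 7 within 20 Mb.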
